A study of Mus musculus with 8 samples.

Results

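The genes described here are those of the YAP/TAZ-TEAD transcription system and of the Hippo kinases that restrain it: the co-activators *Yap1* (YAP) and *Wwtr1* (TAZ), the 4 DNA-binding factors *Tead1* to *Tead4*, the kinases *Lats1* and *Lats2*, and the adaptors *Amotl2* and *Ajuba*. They were taken by gene symbol as members of the pathway, by a rule that used no measured value. The choice was made with earlier results of these data known, as was that of the gene lists further below. All 10 were found among the 52325 gene identifiers of each library, and all 10 were among the 17177 genes expressed highly enough to be tested. RNA came from costal (rib) chondrocytes, the cartilage-forming cells of the rib, taken from wild-type and *Mir140*-null mice of the C57BL/6J strain, all 7 d old, with 4 libraries per genotype. In the null mice the *Mir140* locus was deleted with CRISPR/Cas9, which removes every miRNA made from it, in all tissues and not in cartilage alone. The founders were of a mixed C57BL/6 and CBA/ca background and were crossed back onto C57BL/6J. Heterozygous mice were then crossed over generations to give the wild-type and null lines that were used. Whether these lines also differ in background was not tested. The labels do not say whether each library is 1 animal or a pool of ribs, so that the p-values measure only the spread between these libraries. The comparison asked how the chondrocyte transcriptome differs when the miR-140 miRNAs are absent.

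In the Hippo pathway, the kinases MST1 and MST2 (*Stk4* and *Stk3*), with the scaffold SAV1, activate LATS1 and LATS2, which with MOB1 phosphorylate YAP and TAZ. Phosphorylated YAP and TAZ are held in the cytoplasm or degraded. The unphosphorylated proteins enter the nucleus and bind TEAD factors, which contact DNA at a short motif and drive genes of growth, adhesion and matrix. In cartilage the pathway is known for its response to cell shape and load and for its effect on chondrocyte proliferation and maturation. Its activity is set largely by phosphorylation and localization of the proteins, which RNA levels do not measure.

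The RNA of *Wwtr1* and *Lats1* was up-regulated in the *Mir140*-null chondrocytes, by 1.496-fold and 1.66-fold in mean TPM (a transcript abundance that is scaled by transcript length and by the total of the library). *Tead4* was 1.74-fold higher in mean level and *Ajuba* was at 0.739 times the wild-type mean, with no overlap of the 2 genotypes for either, but neither passed the threshold after adjustment over all genes. *Yap1*, *Tead1*, *Tead2*, *Tead3*, *Lats2* and *Amotl2* overlapped between the genotypes and were not called. Of the 10 genes, 2 were called higher and 0 lower by limma at a Benjamini-Hochberg adjusted p under 0.05, where 10.5% of all tested genes were called higher and 6.4% lower. At an unadjusted limma p under 0.05, 3 were higher and 1 lower, beside 3263 higher and 2558 lower of the 17177 tested genes. The genotypes did not overlap for 3 of the 10 genes in the higher direction and for 1 in the lower, against 15.7% and 10.2% of all tested genes. Their log2 fold changes had a median of 0.40, beside -0.01 for all tested genes and 0.11 for the 9668 genes with a mean of at least 5 TPM. Tested alone, 1643 of those 9668 genes were called higher and 605 lower. In that setting 2 of the members were called higher and 0 lower.

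The libraries differed in ways other than these genes. The share of mitochondrially encoded RNA was 4.06% to 6.99% in wild type and 8.41% to 10.1% in the null libraries, skeletal muscle markers summed to 76.1 to 103 TPM and 36.4 to 60.1 TPM, and neutrophil markers to 1.62 to 5.90 TPM and 6.80 to 10.3 TPM, none of which overlapped between the genotypes. Gene by gene, 0 of 4 tested muscle markers were called, and of 4 tested neutrophil markers only *Camp* was, as higher in the null. Of 8 chondrocyte markers, *Acan* was called higher in the null libraries and *Col9a1*, *Col11a1* and *Hapln1* lower, and *Col2a1* was at 47893 to 61630 TPM in wild type and 34418 to 48361 TPM in the null libraries (not called, limma adjusted p = 0.0695). No gene of the 9 marker lists was at 0 throughout. *Mir140*-null replicates 1 and 2 stood apart by low fibroblast and perichondrium markers, which summed to 588 and 742 TPM in them and to 3093 to 5916 TPM in the other 6 libraries. These sums are made up mostly of *Col1a1*, *Col1a2*, *Col3a1* and *Postn*, and 2 of the 8 listed genes, *Pdgfra* (34.5 and 36.5 TPM in these libraries, 11.8 to 19.8 TPM in wild type) and *Twist2*, were instead called higher in the null. The part of these differences in the results was not tested, and counts and values without both of those null libraries stand beside the calls. *Mir140* itself had a value in 1 library alone, the one labelled *Mir140*-null replicate 2 (8.86 TPM), and was listed at 0 in the other 7. Because poly(A) selection does not capture the processed miRNA, the values of 0 do not check the labels. The source of the value in a library labelled null was not tested.

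The deleted locus encodes miR-140-5p and miR-140-3p, and the latter exists as isomiRs with 2 seeds that differ in their start by 1 base. The mature miR-140-3p of RefSeq (GRCm38.p6, chr8:107551288-107551308, plus strand) is printed below because its seeds define the sites sought in the 3′UTRs. Capitals mark the seed, which spans bases 3 to 9 of this sequence for the shifted isomiR miR-140-3p.1 and bases 2 to 8 for miR-140-3p.2, the form as annotated.
miR-140-3p.2: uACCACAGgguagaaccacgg
miR-140-3p.1: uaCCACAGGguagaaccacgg

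The sites complementary to these seeds (CTGTGGT and CCTGTGG, and their 8-base and A-ended 7-base forms) were sought in the longest 3′UTR of each gene in GENCODE M21 (mm10). Together 5 of the 10 genes held a match, and *Wwtr1*, *Lats1*, *Tead2*, *Tead3* and *Tead4* held none, so that neither called gene carried these letters. Sites for miR-140-5p were not analysed here. *Tead1*, with a 3′UTR of 8147 bases, held 5 matches, of which 4 were for the miR-140-3p.1 seed and 1, at base 1115, was a full 8-base match. Among 12981 tested genes with an annotated 3′UTR, whose median length was 1157 bases, 20.2% held at least 1 site of 7 bases pairing with positions 2 to 8 of miR-140-3p.1 or its 8-base form and 19.0% one for miR-140-3p.2, and 5.77% held an 8-base miR-140-3p.1 site. By the same count, which leaves out the A-ended form, 1 of the 10 genes held a miR-140-3p.1 site (*Tead1*) and 1 a miR-140-3p.2 site (*Yap1*), while *Lats2*, *Amotl2* and *Ajuba* held the A-ended form alone. Of the 10 genes, 8 had a 3′UTR longer than that median. The windows below show the site of *Yap1*, the 8-base site of *Tead1* and the sites of *Lats2*, *Amotl2* and *Ajuba*, with the match in capitals. All lie in the 3′UTR of the named gene, and bases are counted from its first.
*Yap1*, base 1058, chr9:7933425-7933447, minus strand, miR-140-3p.2: tctgtgcaCTGTGGTgacaacag
*Tead1*, base 1115, chr7:112899767-112899790, plus strand, miR-140-3p.1: ctggccagCCTGTGGAtagattgt
*Lats2*, base 1520, chr14:57689754-57689776, minus strand, miR-140-3p.2: tagtttgaTGTGGTAggttcttt
*Amotl2*, base 706, chr9:102732404-102732426, plus strand, miR-140-3p.1: gttcctggCTGTGGAttttgata
*Ajuba*, base 26, chr14:54568891-54568913, minus strand, miR-140-3p.1: caccaccaCTGTGGAgaaactct
These are matches of letters, and whether any of them is bound was not measured. The 5 genes with a match included ones with positive and with negative log2 fold changes (*Yap1* 0.36, *Tead1* 0.55, *Lats2* -0.22, *Amotl2* -0.17 and *Ajuba* -0.32), none of them called.

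**Figure D1:**
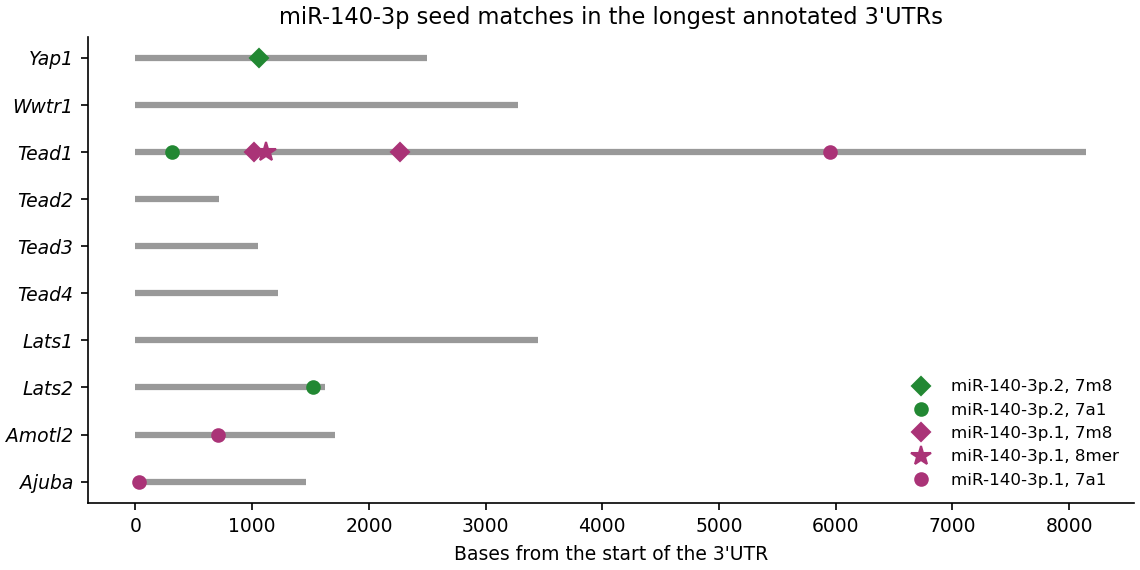
Matches to both miR-140-3p seeds along 1 3′UTR per gene, the longest in the annotation, with bases from its start on the horizontal axis and each grey line drawn to scale. Color gives the seed and shape the class of match (7m8 pairs with seed bases 2 to 8, 7a1 with bases 2 to 7 beside an A, 8mer with both). *Tead1* has the longest 3′UTR and 5 matches, and 5 genes have none.

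*Wwtr1* encodes TAZ, which with YAP is the nuclear effector of the pathway. It (ENSMUSG00000027803, chr3:57455649-57575910, minus strand) was at 59.9, 83.0, 71.1 and 78.7 TPM in wild-type replicates 1 to 4 and at 109.2, 106.1, 105.1 and 117.4 TPM in the null replicates 1 to 4. All 4 null libraries lay above all 4 wild-type libraries, and they were close together, with a highest value 1.12 times the lowest against 1.39 times in wild type. The means were 73.2 ± 10.1 and 109.5 ± 5.54 TPM (SD, n = 4 each), a log2 fold change of 0.58 (SE 0.12, 95% interval 0.32 to 0.85, on the log2(TPM + 1) scale) with a limma adjusted p of 0.0171. Leaving out wild-type replicate 3 gave an adjusted p of 0.0507 and leaving out both null libraries with low fibroblast markers gave 0.0849, with a log2 fold change of 0.61.

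*Yap1* (ENSMUSG00000053110, chr9:7931999-8004596, minus strand) was at 16.0, 27.9, 21.2 and 21.7 TPM in wild type and at 30.1, 24.6, 29.5 and 26.7 TPM in the null libraries. The genotypes overlapped through wild-type replicate 2, which exceeded 2 null libraries. Means were 21.7 ± 4.88 and 27.7 ± 2.55 TPM, and the log2 fold change of 0.36 (SE 0.17, 95% interval -0.02 to 0.74) was not called (limma adjusted p = 0.169). The interval reached from no difference to values as large as that of *Wwtr1*, and the difference between the changes of the 2 genes was not tested. Summed, the co-activators were at 94.9 ± 14.8 TPM (75.9 to 111) in wild type and 137 ± 5.76 TPM (131 to 144) in the null libraries, which did not overlap. This sum is mostly *Wwtr1* RNA and was not tested. TAZ RNA was the more abundant in every library, at 3.42 ± 0.342 times the level of *Yap1* in wild type and 3.98 ± 0.440 times in the null, ranges that overlapped.

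**Figure D2:**
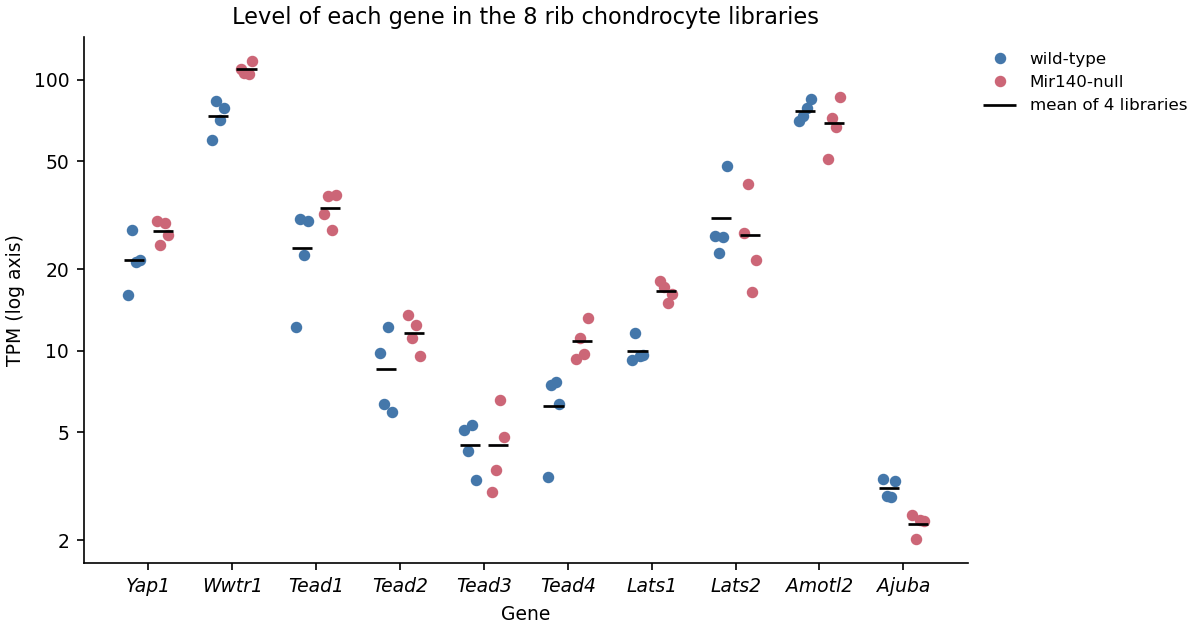
TPM of each gene on a log axis in the 4 wild-type and 4 *Mir140*-null libraries, with 1 point per library and a line at the mean. The null points lie wholly above the wild-type points for *Wwtr1*, *Tead4* and *Lats1* and wholly below for *Ajuba*.

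TEAD factors supply the DNA binding that YAP and TAZ lack. *Tead1* (ENSMUSG00000055320, chr7:112679318-112906807, plus strand), the most abundant of the 4 by mean in both genotypes, was at 12.2, 30.6, 22.5 and 30.2 TPM in wild type and 31.9, 37.1, 27.9 and 37.6 TPM in the null libraries. Wild-type libraries spread 2.50-fold, null libraries 1.35-fold, and only null replicate 3 fell within the wild-type range. The log2 fold change was 0.55 (SE 0.28, 95% interval -0.09 to 1.18) with a limma adjusted p of 0.202.

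*Tead4* (ENSMUSG00000030353, chr6:128224288-128300823, minus strand) was at 3.42, 7.48, 7.69 and 6.38 TPM in wild type and 9.37, 11.1, 9.70 and 13.2 TPM in the null libraries. All null values lay above all wild-type values. The means were 6.24 ± 1.96 and 10.8 ± 1.75 TPM and the log2 fold change was 0.75 (SE 0.23, 95% interval 0.21 to 1.28), the highest point estimate of the 10 genes. It missed the threshold (limma adjusted p = 0.061), and passed it in 1 of the alternatives tried, median-ratio scaling between libraries (adjusted p = 0.0465).

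*Tead2* (ENSMUSG00000030796, chr7:45215753-45233644, plus strand) was at 9.82, 6.38, 12.2 and 5.94 TPM in wild type and 13.5, 11.1, 12.4 and 9.57 TPM in the null libraries, with a log2 fold change of 0.44 (SE 0.23, 95% interval -0.08 to 0.97, limma adjusted p = 0.211). Wild-type replicates 1 and 3 lay within the null range, and the other 2 lay below all of them. *Tead3* (ENSMUSG00000002249, chr17:28331671-28350817, minus strand) was at 5.11, 4.26, 5.33 and 3.33 TPM in wild type and 3.03, 3.64, 6.57 and 4.81 TPM in the null libraries. Both means were 4.51 TPM, and the log2 fold change of -0.03 (SE 0.22, 95% interval -0.54 to 0.49) had an adjusted p of 0.95 in limma. Its 2 lowest null values were in the 2 null libraries low in fibroblast markers, and without them its log2 fold change was 0.28 (adjusted p = 0.460).

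Summed over the 4 genes, TEAD RNA was at 43.2 ± 8.51 TPM (30.6 to 48.7) in wild type and 60.6 ± 4.10 TPM (56.6 to 65.2) in the null libraries, without overlap. This sum was not tested, and none of the 4 genes was called. *Tead1* made up 53.9% ± 12.4 of the sum in wild type and 55.3% ± 4.29 in the null. The share of *Tead4* was 14.1% ± 2.16 (11.2% to 16.1%) and 17.8% ± 1.74 (16.2% to 20.3%), which did not overlap, while the shares of *Tead2* (20.95% ± 9.52 and 19.4% ± 3.99) and *Tead3* (11.0% ± 4.16 and 7.50% ± 2.89) did. Co-activator RNA per TEAD RNA was alike in the means, at 2.22 ± 0.228 and 2.27 ± 0.155.

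**Figure D3:**
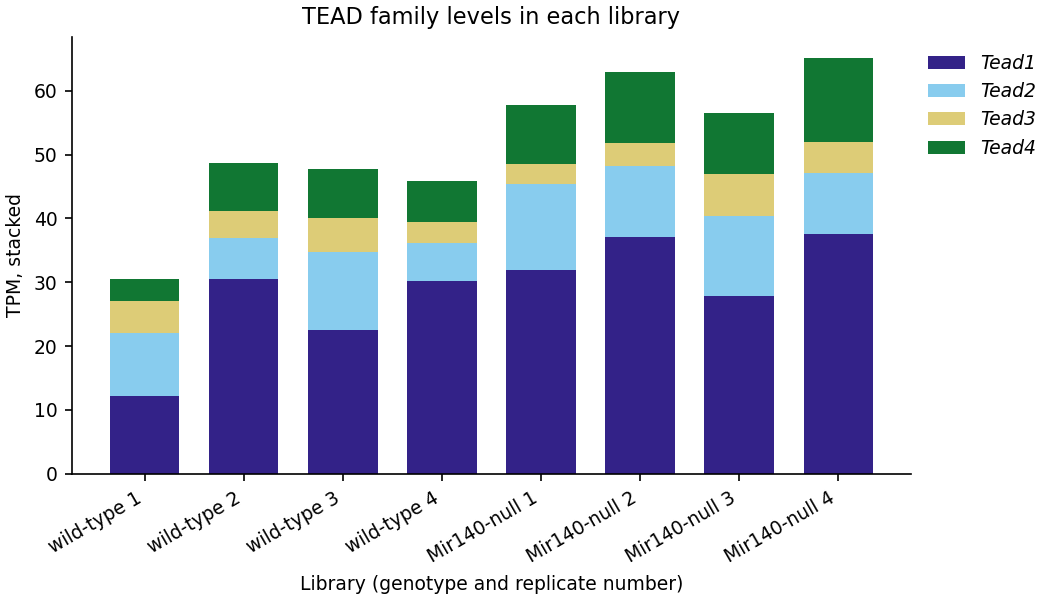
TPM of *Tead1* to *Tead4*, stacked, with 1 bar per library. The sum is 30.6 to 48.7 TPM in wild type and 56.6 to 65.2 TPM in the *Mir140*-null libraries, and *Tead1* is the largest part on average.

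LATS1 and LATS2 are the kinases that phosphorylate YAP and TAZ. *Lats1* (ENSMUSG00000040021, chr10:7681214-7716460, plus strand) was at 9.22, 11.6, 9.61 and 9.63 TPM in wild type and 18.02, 17.1, 14.9 and 16.2 TPM in the null libraries. The lowest null library exceeded the highest wild-type library. Means were 10.01 ± 1.07 and 16.6 ± 1.32 TPM, and the log2 fold change of 0.68 (SE 0.12, 95% interval 0.41 to 0.94) had an adjusted p of 0.0115 in limma, the lowest of the 10 genes. Every fit without 1 library kept the call, and without both null libraries of low fibroblast markers the log2 fold change was 0.59 with an adjusted p of 0.0690.

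*Lats2* (ENSMUSG00000021959, chr14:57689662-57758388, minus strand), also known as a target of YAP, was at 26.5, 22.9, 26.2 and 47.9 TPM in wild type and 27.1, 41.2, 16.5 and 21.6 TPM in the null libraries. Its values spread over 2.09-fold in wild type and 2.50-fold in the null, with wild-type replicate 4 and null replicate 2 high. The log2 fold change was -0.22 (SE 0.31, 95% interval -0.94 to 0.49, limma adjusted p = 0.646), and it was 0.0013 without wild-type replicate 4. *Lats2* RNA was 3.14 ± 1.29 times that of *Lats1* in wild type and 1.59 ± 0.571 times in the null. The ranges overlapped (1.98 to 4.98 and 1.10 to 2.41), and the highest ratio was in wild-type replicate 4. The sum of the 2 kinases was 40.9 ± 11.1 and 43.2 ± 11.6 TPM.

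Angiomotin-like 2 binds YAP and TAZ and holds them outside the nucleus, and its gene is itself a known YAP target. *Amotl2* (ENSMUSG00000032531, chr9:102716672-102733418, plus strand) was at 70.4, 73.1, 78.6 and 84.5 TPM in wild type and 51.1, 72.0, 66.8 and 86.4 TPM in the null libraries. The null libraries spanned the wild-type range on both sides, and the log2 fold change was -0.17 (SE 0.16, 95% interval -0.53 to 0.19, limma adjusted p = 0.485). AJUBA is a LIM-domain adaptor of cell junctions that restrains LATS activity. *Ajuba* (ENSMUSG00000022178, chr14:54567472-54577558, minus strand) was at 3.38, 2.93, 2.89 and 3.31 TPM in wild type and 2.47, 2.03, 2.37 and 2.37 TPM in the null libraries. All 4 null values lay below all wild-type values. Means were 3.13 ± 0.254 and 2.31 ± 0.195 TPM, and the log2 fold change was -0.32 (SE 0.11, 95% interval -0.58 to -0.06), which was not called (limma adjusted p = 0.0904).

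**Figure D4:**
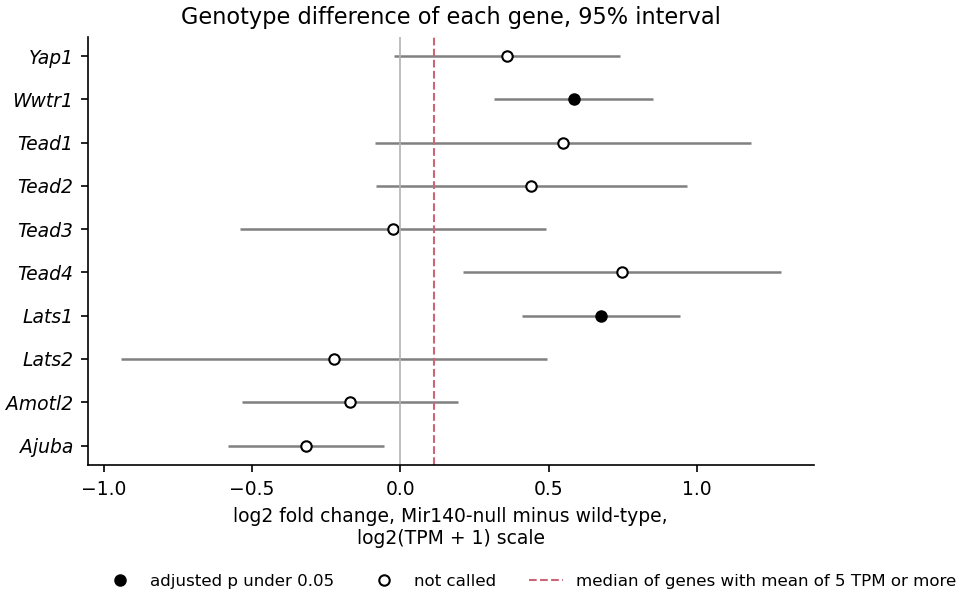
Log2 fold change of each gene, *Mir140*-null minus wild type on the log2(TPM + 1) scale, with 95% intervals from limma, filled where called, and a dashed line at the median of genes with a mean of at least 5 TPM. The intervals of *Wwtr1*, *Tead4*, *Lats1* and *Ajuba* leave out 0, and *Wwtr1* and *Lats1* were called after adjustment.

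In bulk RNA, fewer cells of a type and less RNA per cell cannot be told apart for any of these genes. TPM is scaled by length, so that levels may be set side by side. In wild type the order by mean was *Amotl2* (76.7 TPM) and *Wwtr1* (73.2 TPM), then *Lats2* (30.9 TPM), *Tead1* (23.9 TPM) and *Yap1* (21.7 TPM), then *Lats1* (10.01 TPM), *Tead2* (8.59 TPM), *Tead4* (6.24 TPM), *Tead3* (4.51 TPM) and *Ajuba* (3.13 TPM). The first 2 did not overlap with *Lats2* or the genes after it, and *Yap1* did not overlap with *Lats1*, while the other neighbours in this order overlapped over the 4 libraries. *Wwtr1* stood higher than 91.8% of tested genes in wild type, *Yap1* than 77.0% and *Ajuba* than 35.1%. In the null libraries *Wwtr1* came first and did not overlap with *Amotl2* (69.1 ± 14.5 TPM), *Lats1* overlapped with *Lats2*, and *Ajuba* remained last.

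The genes with the profile nearest to that of *Wwtr1* over the 8 libraries, among 9467 genes of at least 5 TPM on average, were *Ncoa6* (a nuclear receptor co-activator), *Hif1a* (the hypoxia-inducible factor) and *Sorbs3* (an adaptor of cell adhesions). Their root mean square differences from it in centred log2(TPM + 1) were 0.0514, 0.0523 and 0.0609, where the own spread of *Wwtr1* about its mean was 0.321. For *Yap1*, with an own spread of 0.275, the nearest were *Rac3* (a small GTPase) at 0.0717, *Slc1a4* (an amino acid transporter) at 0.0720 and *Cnot4* (a ubiquitin ligase of the deadenylase complex) at 0.0798. These are the nearest of many profiles over 8 points and a description of the libraries.

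Upstream of and around the LATS kinases, 6 of 30 tested regulators were called higher and 0 lower, with 19 of 30 positive and a median log2 fold change of 0.13, beside 10.5% called higher, 6.4% called lower and 8460 of 17177 positive among all tested genes. Of the 9668 genes with a mean of at least 5 TPM, tested alone, 1643 were called higher and 605 lower. Their median log2 fold change was 0.11, and in that setting 5 regulators were called higher and 0 lower. The list held 31 genes, of which *Vgll3* was too low to test. Among the scaffolds and co-activators of the kinases, *Sav1*, which joins MST to LATS, was at 15.3 ± 1.65 and 25.3 ± 3.65 TPM (log2 fold change 0.69, SE 0.14, limma adjusted p = 0.0165). *Mob1a*, the LATS co-activator, was at 17.8 ± 2.25 and 30.2 ± 4.16 TPM (0.73, SE 0.14, adjusted p = 0.0141). Both were called higher, as *Lats1* was. *Fat4*, an atypical cadherin of planar polarity, was at 6.04 ± 1.86 and 13.2 ± 2.59 TPM (1.04, SE 0.24, limma adjusted p = 0.0248), *Amotl1*, a relative of *Amotl2*, at 14.7 ± 2.98 and 24.3 ± 3.06 TPM (0.70, SE 0.17, adjusted p = 0.0288), and *Taok1*, a kinase that activates MST, at 4.99 ± 0.385 and 7.18 ± 0.0823 TPM (0.45, SE 0.11, adjusted p = 0.0285). The sixth was *Taok3*, a kinase related to *Taok1* and outside the naming rule (log2 fold change 0.72, limma adjusted p = 0.0436). Of the alternatives with a value, *Taok3* was called in 4 of 17, *Taok1* in 8 of 18, *Amotl1* in 10 of 18, *Fat4* in 12 of 18, and *Sav1* and *Mob1a* in 17 of 18.

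The MST kinases themselves were not called. *Stk3* was at 12.9 ± 1.98 and 10.4 ± 2.02 TPM (log2 fold change -0.29, limma adjusted p = 0.263) and *Stk4* at 6.47 ± 0.948 and 8.45 ± 2.003 TPM (0.33, adjusted p = 0.225). *Nf2*, the membrane scaffold merlin, was at 16.3 ± 3.95 and 13.6 ± 4.07 TPM (-0.26, limma adjusted p = 0.524), *Amot* had a log2 fold change of -0.27 (adjusted p = 0.397) and *Vgll4*, which competes with YAP for TEAD, one of 0.15 (adjusted p = 0.524). The count of 6 called higher fell to 3 without null replicate 1 or wild-type replicate 3, to 2 without null replicate 2, null replicate 4 or wild-type replicate 4, and to 0 without null replicates 1 and 2 together. In that last fit the log2 fold changes were 0.54 for *Sav1*, 0.64 for *Mob1a*, 1.17 for *Fat4*, 0.68 for *Amotl1* and 0.45 for *Taok1*, with limma adjusted p from 0.0686 to 0.127.

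Of 20 genes known as YAP/TAZ-TEAD targets, 18 could be tested, of which 6 were called higher and 1 lower, with 12 of 18 positive and a median log2 fold change of 0.20, against the same 10.5% and 6.4% of all tested genes. Among genes with a mean of at least 5 TPM, tested alone, 1643 of 9668 were called higher and 605 lower. In that setting 6 targets were called higher and 1 lower. The 2 best known targets, both encoding secreted matricellular proteins, differed in direction. *Ccn2* (connective tissue growth factor) was at 139, 181, 175 and 183 TPM in wild type and 249, 253, 227 and 258 TPM in the null libraries (log2 fold change 0.54, SE 0.11, limma adjusted p = 0.018). *Ccn1* (CYR61) was at 284, 287, 381 and 298 TPM in wild type and 143, 207, 273 and 261 TPM in the null libraries. The null libraries lay above for *Ccn2* and below for *Ccn1*, but the latter was not called (-0.53, SE 0.21, limma adjusted p = 0.118). *Ccn1* was called with 1 factor of unwanted variation from residuals (limma adjusted p = 0.0182), a setting that called 4476 genes where the main test called 2897. *Ccn1* is also an immediate-early gene, a class that is induced rapidly by stimulation of the cell. Of 8 other immediate-early genes, 7 were called lower, where 6.4% of all tested genes were, with a median log2 fold change of -1.60, and their sum was 6068 to 12340 TPM in wild type and 1937 to 3303 TPM in the null libraries. Their part in the level of *Ccn1* was not tested. *Ankrd1*, a muscle-enriched target, was at no more than 0.287 TPM and was not tested.

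Among the other targets called, *Nt5e* (the ectoenzyme CD73) had the highest fold, at 39.6 ± 14.6 and 137.7 ± 48.7 TPM (log2 fold change 1.79, SE 0.36, limma adjusted p = 0.0173). *Fjx1*, a Golgi kinase homologue, was at 5.71 ± 1.497 and 14.7 ± 4.34 TPM (1.22, SE 0.25, adjusted p = 0.0176). *Arhgef17* was at 12.0 ± 2.25 and 20.9 ± 3.46 TPM (0.76, SE 0.17, limma adjusted p = 0.022). The other 2 called higher, outside the naming rule, were *Ptpn14*, a phosphatase that binds YAP (1.07, adjusted p = 0.0231), and *Tgfb2*, a growth factor (1.13, limma adjusted p = 0.0233). All of these rose, and the 1 called target that fell was *Ccdc80*, a secreted matrix protein, at 103.2 ± 4.07 and 65.5 ± 12.8 TPM (-0.67, SE 0.14, limma adjusted p = 0.0204). Without null replicate 2 none of the 6 was called, without wild-type replicate 3 the count was 3, and without both null replicates 1 and 2 no target was called in either direction. In that last fit the log2 fold changes were 0.52 for *Ccn2*, 1.35 for *Nt5e*, 0.90 for *Fjx1*, 0.59 for *Arhgef17* and -0.43 for *Ccdc80*, with limma adjusted p from 0.0583 to 0.123. *Ccdc80* was not called without null replicate 2 or wild-type replicate 3 or 4.

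**Figure D5:**
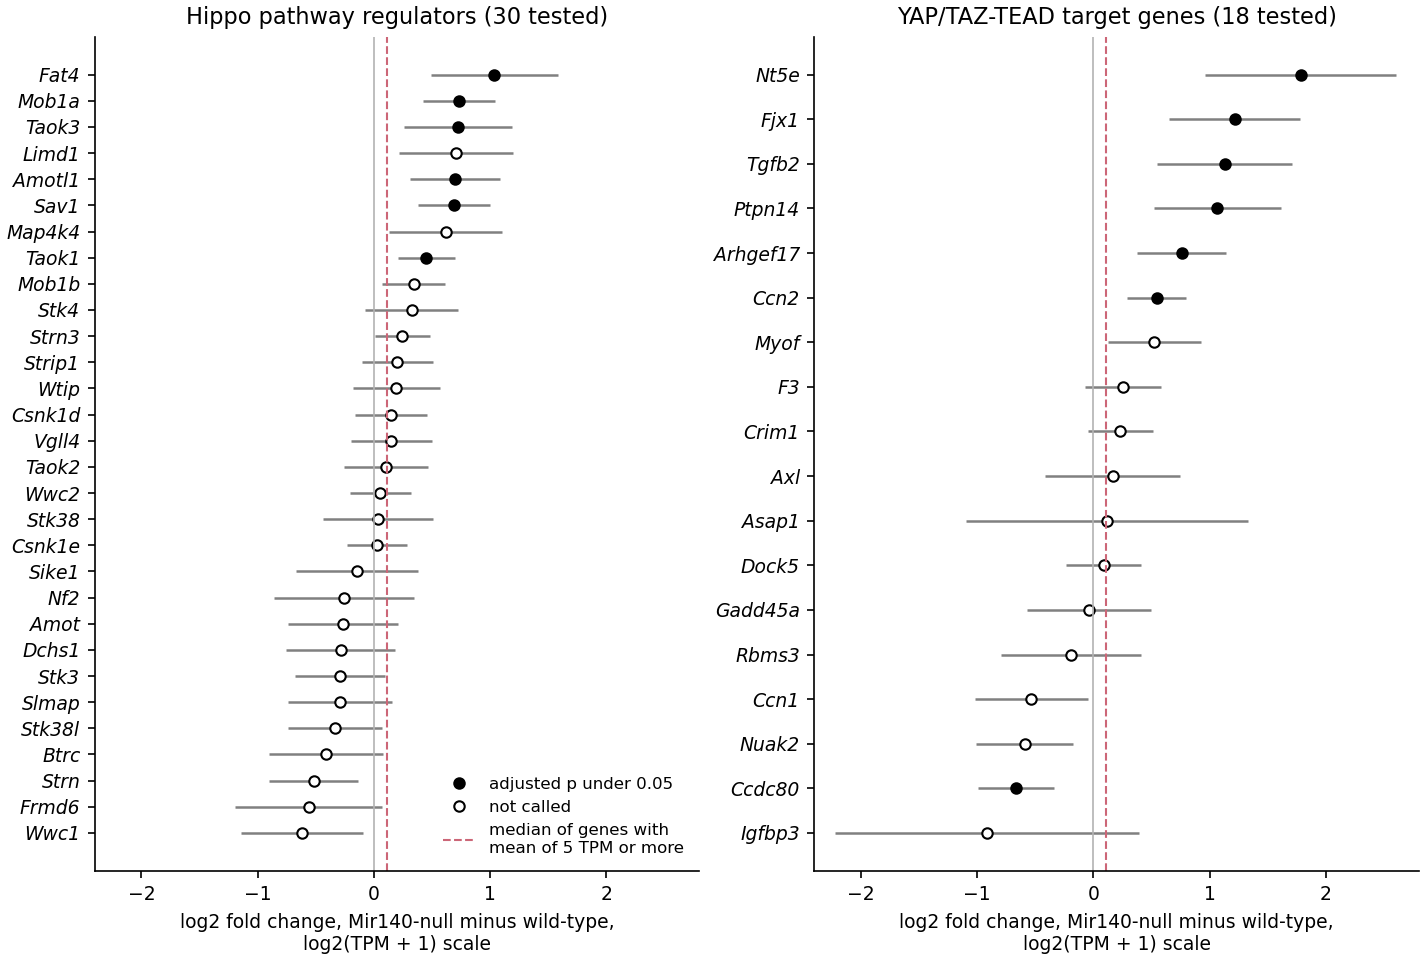
Log2 fold changes, *Mir140*-null minus wild type on the log2(TPM + 1) scale, of 30 Hippo regulators (left) and 18 YAP/TAZ-TEAD targets (right), with 1 point and its 95% interval per gene, filled where called, and a dashed line at the median of genes with a mean of at least 5 TPM (0.11). Values are positive for 19 of the 30 and 12 of the 18.

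TEAD factors bind the motif GGAATG, and this motif was sought on both strands (CATTCC on the reverse) in the RefSeq promoters (GRCm38.p6), from 250 bases before to 50 after each annotated start. Of the 8 genes with a promoter entry, which did not include *Tead1* and *Tead4*, 6 held at least 1 match, and of their 12 promoters 8 did. Among all genes with an entry 16.6% of 27025 held a match, and among all promoters 14.7% of 32851. *Lats1* and *Tead2* held none, and of 13 target genes with an entry 5 did, *Ccn1* among them. The windows below are shown because they hold the motif, in capitals, in the co-activators' own promoters and in those of the known targets *Lats2* and *Amotl2* and of *Ajuba*.
*Wwtr1*, motif from base -136, chr3:57576029-57576058, minus strand: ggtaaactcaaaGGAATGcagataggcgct
*Yap1*, motif from base -141, chr9:8004720-8004749, minus strand: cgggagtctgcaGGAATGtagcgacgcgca
*Lats2*, motif from base 5, chr14:57746102-57746131, minus strand: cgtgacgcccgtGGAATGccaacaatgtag
*Amotl2*, motif from base -65, chr9:102717727-102717756, plus strand: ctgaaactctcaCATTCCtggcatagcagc
*Ajuba*, motif from base -186, chr14:54577830-54577859, minus strand: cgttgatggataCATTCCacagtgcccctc
The same *Wwtr1* site lies at base -136 or -170, depending on the annotated start, and counts in both promoters. The windows of *Lats2* and *Amotl2* lie at annotated starts inside the gene spans given above. A match is a description of the letters in this window, and binding was not measured. Of the 6 genes with a match, *Wwtr1* was called higher, and *Yap1*, *Tead3*, *Lats2*, *Amotl2* and *Ajuba* were not called in either direction.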

How the data were processed

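The authors deposited 1 TPM value per Ensembl gene for each of the 8 libraries, made with Salmon (version not given in the sources used here) from stranded poly(A) libraries, with mm10 and FastQC 0.11.7 named in the submitters' processing notes. TPM carry no read counts, so the depth and counting error of each value are unknown. Repeated lines of an identifier were counted once, after which each library summed to 1000000. Symbols came from GENCODE M21, in which *Ctgf* and *Cyr61* are *Ccn2* and *Ccn1*.

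Genes that reached 0.5 TPM in 4 or more of the 8 libraries were tested on log2(TPM + 1) with limma 3.58.1 (R 4.3.3, mean-variance trend, two-sided, genotype as the only term). Benjamini-Hochberg adjustment of the limma p-values ran over all genes tested, and those under 0.05 were called. The count model with factors of unwanted variation that the authors used could not be the main test of TPM, so 1 such factor was tried as an alternative, computed by singular value decomposition. Python 3.11.15 did the rest, and the test was tried on simulated data.

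The members and lists were chosen with earlier results of these data known. Named genes were the 10 members, 6 core regulators and 3 core targets, the 5 called genes of the smallest p in each of these lists, and the 3 nearest profiles of *Yap1* and *Wwtr1*. Other alternatives were a pseudocount of 0.1, no filter, a mean of at least 5 TPM, median-ratio scaling, quantile normalization, a replicate block, weights for the quality of each sample, and omission of each library in turn. Leaving out null replicates 1 and 2 together was chosen after seeing the data.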

Additional observations from a re-analysis of the deposited data

Results flagged for a closer look

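In groups of 4 libraries, 1 library stood far from the other 3 by Dixon's criterion in 5 of the 54 groups examined, where chance gives about 1 in 20. *Lats2* was at 47.9 TPM in wild-type replicate 4, against 22.9 to 26.5 TPM in the other wild-type libraries. *Ccn1* was at 381.0 TPM in wild-type replicate 3, against 283.7 to 298.2 TPM. *Nf2* was at 10.4 TPM in wild-type replicate 3, against 17.7 to 18.7 TPM. *Stk4* was at 11.4 TPM in *Mir140*-null replicate 4, against 7.09 to 7.66 TPM in the other null libraries. *Mob1a* was at 36.4 TPM in *Mir140*-null replicate 1, against 27.5 to 28.9 TPM.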

How the results depend on the processing

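Of 178 values of the 10 genes under the alternatives tried, 164 kept their direction and their side of the threshold, 4 lost the call, 1 gained it and 9 changed sign. The main test called 2897 genes, against 1405 with 1 factor of unwanted variation from the genes of least evidence (RUVg), 4476 with 1 from residuals (RUVr), 1516 with no filter, 567 without null replicates 1 and 2, and 1202 to 2767 with 1 library left out. The replicate numbers did not pair the libraries (correlations of same-numbered deviations -0.01 to 0.07). With the replicate block 1125 genes were called, 1 member was higher (*Wwtr1* missed at an adjusted p of 0.0518), 1 regulator was lower, and 2 targets were higher and 0 lower. Members called higher numbered 0 without null replicates 1 and 2 and 1 to 2 with 1 library left out, the 1 without wild-type replicate 3, and members called lower 0 throughout. Regulators called higher numbered 3 with RUVg, 3 with no filter, 0 without null replicates 1 and 2, and 2 to 5 with 1 library left out. Regulators called lower numbered 3 with RUVr, 1 with quantile normalization and 0 to 1 with 1 library left out. Targets called higher numbered 1 with RUVg, 0 without null replicates 1 and 2, and 0 to 6 with 1 library left out. Targets called lower numbered 4 with RUVr, 0 without null replicates 1 and 2, and 0 to 2 with 1 library left out. Among the genes named by rule the sign changed for 3: *Tead3* to 0.26 (RUVg), 0.058 (quantile), 0.10 (quality weights), 0.28 (without null replicates 1 and 2) and between -0.19 and 0.11 with 1 library left out, *Lats2* between -0.45 and 0.0013 with 1 library left out (the latter without wild-type replicate 4), and *Amot* to 0.016 (RUVg) and 0.036 (without null replicates 1 and 2). Genes called higher made up 62.0% of calls, 58.4% with median-ratio scaling, 57.4% with quantile normalization, 55.0% with RUVr, 69.7% with RUVg and 73.1% among genes with a mean of at least 5 TPM. The cause of these changes was not tested.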

Other observations

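The genes here were chosen after their values were seen, and their differences from *Ajuba* were not tested. *Limd1*, a LIM-domain relative of *Ajuba*, was at 124, 122, 78.9 and 152 TPM in wild type and 193, 238, 189 and 152 TPM in the *Mir140*-null libraries, with null replicate 4 at the top of the wild-type range. Its log2 fold change of 0.71 (SE 0.21) was not called (limma adjusted p = 0.0556). *Wtip*, the other relative, was at 8.98 ± 1.58 and 10.4 ± 1.79 TPM (SD, n = 4 each), with a limma adjusted p of 0.436. By mean level *Limd1* was the most abundant of these 3 adaptors in both genotypes and *Ajuba* the least.

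*Map4k4*, a kinase that can phosphorylate LATS in parallel with MST, was at 105, 198, 153 and 163 TPM in wild type and 188, 209, 280 and 266 TPM in the null libraries. Wild-type replicate 2 overlapped with the null values, and its log2 fold change of 0.62 (SE 0.21) was not called (limma adjusted p = 0.0788).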
